A study of Mus musculus with 8 samples.

Results

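Distal chromosome 1 of the mouse, from 170 to 180 Mb in the mm10 genome build, is described here through 82 protein-coding genes whose RNA was counted in CD11c-positive splenocytes. The genes were taken by position: every gene of the deposited table that starts on chromosome 1 at or after base 170000000 and before base 180000000 (106 genes), less 24 genes of the Fc gamma receptor, SLAM and Ifi200 families that lie among them. Those 24 genes were left out by symbol, and Cd244a, which encodes a SLAM family receptor, stays among the 82 genes. The table holds 13786 genes in all, 831 of them on chromosome 1. The window itself was proposed because earlier results of these same counts showed genes that differed more than 2-fold between the strains to be concentrated in it, so the number of its genes that differ is a description of how it was chosen.

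Female C57BL/6 mice and female B6.SLE123 mice were compared at 7 weeks of age, with 4 mice per strain and no treatment. B6.SLE123, named B6.NZMSLE1/SLE2/SLE3 in the study's methods, was obtained like its control from The Jackson Laboratory, and at this age the methods describe it as free of overt disease. The genotype field of the sample labels counts upwards by 1 from mouse to mouse within each strain, so the strain was taken from the sample titles. CD11c, the product of Itgax, is carried by dendritic cells and also by some macrophages and lymphocytes, and RNA of all CD11c-positive cells of a spleen was sequenced together, so fewer cells of a type and less RNA per cell cannot be told apart.

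B6.SLE123 is a triple congenic strain in which the lupus susceptibility intervals Sle1, Sle2 and Sle3 of a New Zealand hybrid line were bred onto C57BL/6. Sle1 lies on distal chromosome 1 and is known for the loss of tolerance to chromatin, and the region holds clusters of immune receptor genes that vary between mouse strains. The genes between those clusters are a mixed neighbourhood of housekeeping enzymes, ion channels, adhesion molecules and signalling proteins. The ends of the transferred segments are not given in the sources used here, and no genotype was read.

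The sequences just before the start of 5 of these genes are printed because the genes carry the largest rise (Itln1), the largest fall (Fcrlb) and a run of adjacent falls (Igsf8, Kcnj9 and Kcnj10). They are the 200 bases before each start in RefSeq on GRCm38.p6, the assembly also called mm10, read 5′ to 3′ on the strand of the gene, and none of these stretches holds an annotated exon. They come from the reference genome, which is that of C57BL/6J, and the B6.SLE123 alleles were not read. Capitals mark every match on either strand to TATAAA, the box bound by the TATA-binding protein, to CCAAT, which reads ATTGG on the other strand, to GGGCGG, the GC box of Sp1, which reads CCGCCC on the other strand, and to GGAAGT, which holds the core of ETS factor sites. The E-box CACGTG was also searched and is not among these letters.
Itln1 (chr1:171535295-171535494, minus strand): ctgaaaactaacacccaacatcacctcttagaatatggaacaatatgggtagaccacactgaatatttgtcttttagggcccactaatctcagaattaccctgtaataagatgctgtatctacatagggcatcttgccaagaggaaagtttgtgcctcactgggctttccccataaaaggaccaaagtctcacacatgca
Fcrlb (chr1:170912942-170913141, minus strand): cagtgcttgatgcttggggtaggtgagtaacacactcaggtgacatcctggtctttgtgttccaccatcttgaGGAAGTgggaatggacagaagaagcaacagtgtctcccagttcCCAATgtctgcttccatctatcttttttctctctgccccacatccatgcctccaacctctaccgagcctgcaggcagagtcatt
Igsf8 (chr1:172312167-172312366, plus strand): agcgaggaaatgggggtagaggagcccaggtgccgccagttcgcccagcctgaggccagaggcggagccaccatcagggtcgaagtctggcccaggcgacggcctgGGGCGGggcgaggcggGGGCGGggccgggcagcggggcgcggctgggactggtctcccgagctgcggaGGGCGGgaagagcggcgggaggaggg
Kcnj9 (chr1:172329323-172329522, minus strand): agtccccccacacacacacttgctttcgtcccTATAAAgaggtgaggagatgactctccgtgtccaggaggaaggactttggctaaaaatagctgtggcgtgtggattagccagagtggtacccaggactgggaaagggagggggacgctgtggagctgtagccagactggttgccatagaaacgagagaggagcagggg
Kcnj10 (chr1:172341010-172341209, plus strand): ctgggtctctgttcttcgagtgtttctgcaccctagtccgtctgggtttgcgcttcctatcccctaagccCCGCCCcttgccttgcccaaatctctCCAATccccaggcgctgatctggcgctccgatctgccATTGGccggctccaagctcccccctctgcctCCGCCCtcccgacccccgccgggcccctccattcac

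The neighbours Igsf8 and Kcnj10 had GC-rich stretches, with 20 and 12 CpG dinucleotides and a GC content of 76.0% and 65.0%. Kcnj9, which lies between them, had 5 CpG and a TATAAA match, Fcrlb had 1 CpG, and Itln1 had 0 CpG and a GC content of 42.0%. A RefSeq start was matched by symbol for 66 of the 82 genes. For each gene 1 start was kept, the nearest to a GENCODE transcript start, or the one of lowest coordinate where several tied. Some of these starts lie inside the gene, as for Igsf8 and Nos1ap, so other starts of a gene were not read. Among them, the median CpG number was 4.5 for the 14 matched genes that were more than 2-fold lower in B6.SLE123 mice, 3.0 for the 5 that were more than 2-fold higher and 10 for the other 47, beside 5.0 over all 32851 promoters of the table. At least 10 CpG were found in 6 of 14, 0 of 5 and 25 of 47 of these groups, and in 34.2% of all promoters. CCAAT was found in 7 of 14, 1 of 5 and 11 of 47, beside 29.3% of all promoters, and GGGCGG in 6, 1 and 23 of them, beside 31.0%. GGAAGT was found in 3, 2 and 10 of the 3 groups, beside 16.7% of all promoters, TATAAA in 1, 0 and 1, beside 9.96%, and CACGTG in 0, 0 and 2, beside 5.26%. A match is only a match of letters, and the absence of one says nothing of the factor.

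Counts per mouse summed to between 25761789 and 32931045 in C57BL/6 mice and between 25563070 and 37367094 in B6.SLE123 mice. Each gene of the table had a median of at least 5 counts in 1 strain or the other, and rarer genes were not tested. Levels are given as CPM, a gene's counts relative to the TMM-scaled library size, and log2 fold changes compare B6.SLE123 with C57BL/6 mice, with negative values where the lupus-prone strain was lower. A gene is said to have risen or fallen when its adjusted p was below 0.05 in edgeR's quasi-likelihood F test, adjusted by the Benjamini-Hochberg method over all 13786 genes. Every adjusted p in the text is from that test, and since the labels give only strain and number, it measures the spread between these 8 mice.

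Of the 82 genes, 55 differed between the strains (67.1%), beside 53.4% of all genes tested. Of these, 21 were higher in B6.SLE123 mice (26.7% of all genes were) and 34 were lower (26.6% of all genes). More than 2-fold differences were found for 22 genes (26.8%), beside 11.1% of all genes, with 5 higher (2.76% of all genes) and 17 lower (8.29% of all genes). The strains were fully separated, mouse by mouse, for 54 genes, 21 higher and 33 lower, beside 48.9% of all genes (24.4% higher and 24.5% lower). The window was chosen on this contrast, so these shares are its description. Among the 55 genes, 27 differed by 1.5-fold or less, 6 by between 1.5-fold and 2-fold, and 12 by more than 4-fold, 9 of them lower. The median log2 fold change was -0.162 for the 82 genes and -0.002 for all genes, and the median of its absolute value was 0.437 and 0.249.

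**Figure D1:**
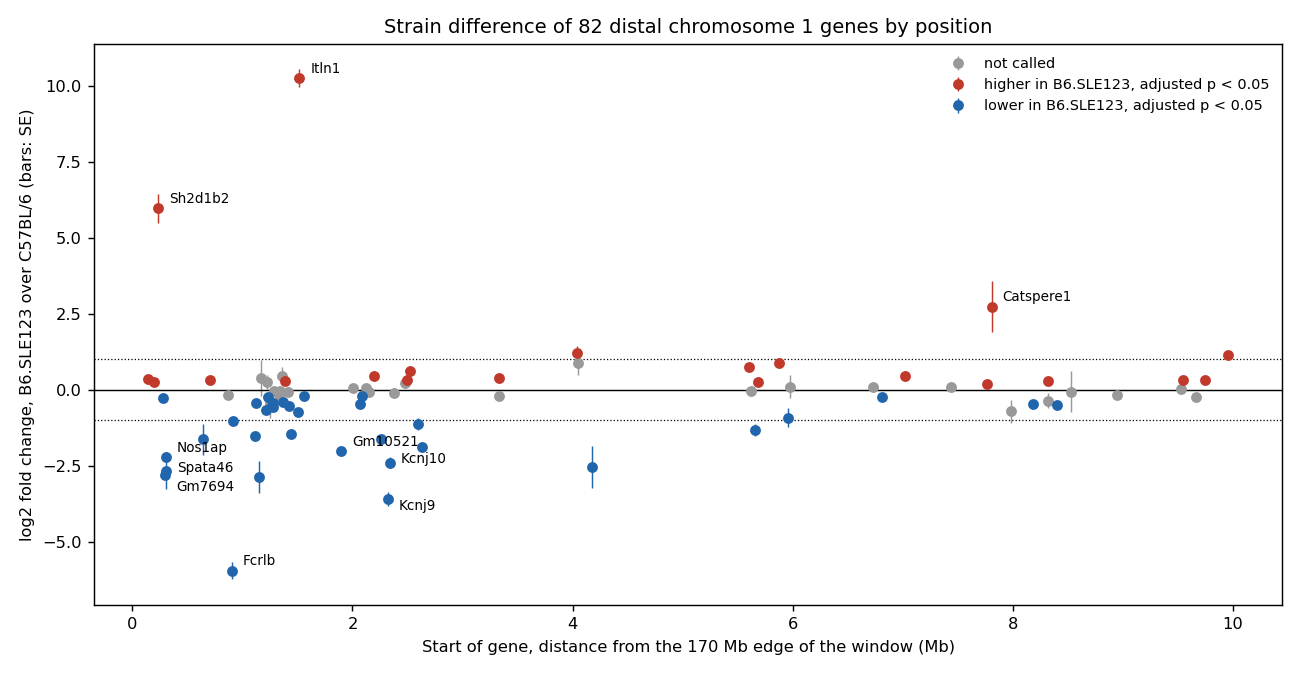
Log2 fold change (B6.SLE123 over C57BL/6) of the 82 genes against the distance of their start from the 170 Mb edge in Mb. Bars give the SE, calculated back from the F test. Red points rose and blue points fell in B6.SLE123 mice (adjusted p below 0.05), grey points did not pass, and dotted lines mark a 2-fold difference. The 17 genes more than 2-fold lower include 15 within 3 Mb of the edge, while Itln1 at 10.27 and Sh2d1b2 at 5.98 stand above all others.

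The falls and rises were counted along the window, beside 26.6% of all genes that were lower and 26.7% that were higher. Between 170 and 173 Mb, 28 of 52 genes were lower and 9 were higher, and of the genes that differed more than 2-fold 15 were lower and 2 were higher. Between 173 and 180 Mb, 6 of 30 genes were lower and 12 were higher, with 2 and 3 of them more than 2-fold. The split at 173 Mb was made after the values were seen and was not tested. In the first megabase, 11 of 12 genes differed, 7 of them more than 2-fold, beside 53.4% and 11.1% of all genes. In the 10 Mb on either side, 8 of 59 genes (160 to 170 Mb) and 7 of 50 genes (180 to 190 Mb) differed more than 2-fold, as did 7 of the 24 family genes that were left out and 99 of the 725 genes on the rest of chromosome 1.

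At the edges, the last genes outside the window were Hsd17b7, a hydroxysteroid dehydrogenase with a log2 fold change of 0.29 (adjusted p = 0.0289), and Ddr2, a collagen receptor kinase at -1.84 (adjusted p = 0.0328) from only 0.204 CPM in C57BL/6 mice. The first genes inside it were Uap1, an enzyme of UDP-N-acetylglucosamine synthesis (0.34), and Uhmk1, a serine/threonine kinase (0.25). At the far end, Ahctf1, a nuclear pore assembly protein, was at 0.32 and Cdc42bpa at 1.13. Beyond them, Coq8a, a kinase-like protein of coenzyme Q synthesis, was at -0.19 (adjusted p = 0.0716). Psen2, a presenilin, was at -1.11 (adjusted p = 2.07e-05). Single genes past each edge thus also differed, but so did 53.4% of all genes. The window's larger share of more than 2-fold differences (26.8%) was not seen in the 10 Mb on either side. It was 8 of 59 and 7 of 50 genes there, beside 99 of 725 on the rest of chromosome 1.

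**Figure D2:**
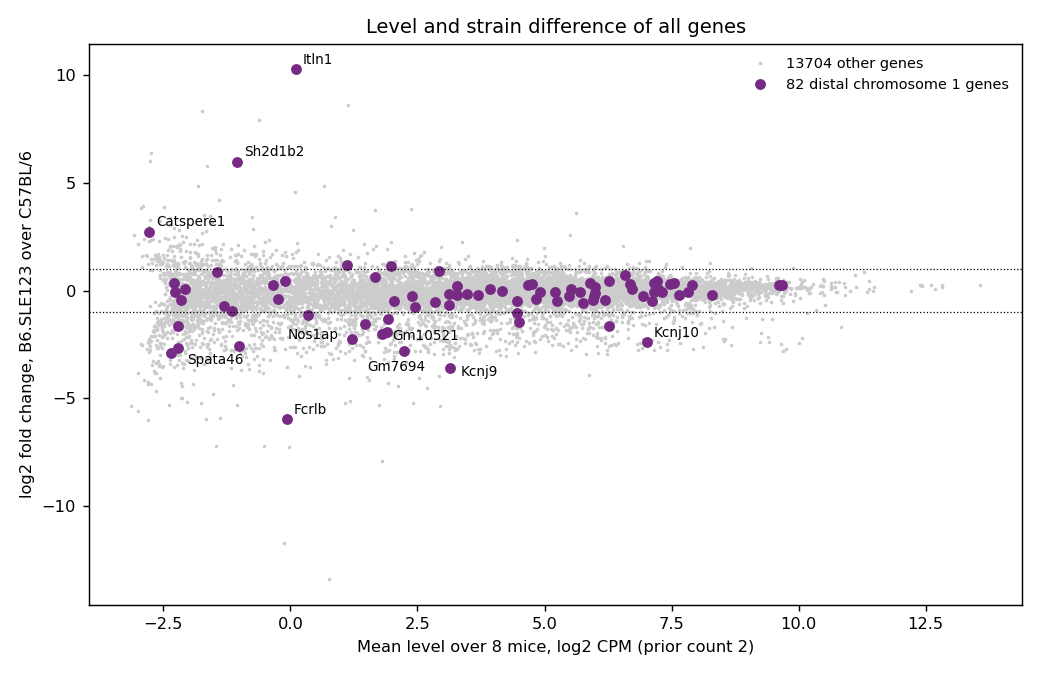
Log2 fold change (B6.SLE123 over C57BL/6) against the mean level over the 8 mice in log2 CPM for the 82 genes (purple) and the 13704 other genes of the table (grey), with dotted lines at a 2-fold difference. Most genes beyond 2 on the log2 scale are named. These genes span the range of levels up to Kcnj10, and the most abundant of the 82 genes lie close to 0.

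Of 8 immune receptors, adaptors and lectins, 2 rose and 5 fell, and 5 of them changed more than 2-fold (62.5%, beside 11.1% of all genes). Itln1 and Sh2d1b2 went from near 0 to a measurable level, while the Fc receptor-like genes Fcrlb, Fcrla and Fcrl6 all fell.

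Itln1, on chr1:171518122-171535294, encodes intelectin 1, a secreted lectin that binds microbial sugars. Its level was 0, 0.0384, 0 and 0 CPM in the 4 C57BL/6 mice and 13.6, 15.6, 16.2 and 17.6 CPM in the 4 B6.SLE123 mice, from 0, 1, 0 and 0 counts and 430, 582, 547 and 447 counts. The gene was thus nearly silent in C57BL/6 mice and present in every B6.SLE123 mouse. Per kilobase of exon (RPKM, the CPM divided by exon length) its mean level in B6.SLE123 mice was 13.8, below that of the SLAM adaptor gene Sh2d1b1, at 22.5 RPKM. Scaled by library size, the summed counts were 1810 times higher in B6.SLE123 mice, with a 95% exact interval of 324.4 to 71520 that covers counting error only, and the adjusted p was 4.91e-09. The fitted log2 fold change of 10.27 rested on that single C57BL/6 count, and without C57BL/6 replicate 2 it was 11.93. The intelectins have close copies whose number varies between mouse strains, so the copy that gave these reads is uncertain.

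Sh2d1b2, on chr1:170232749-170253608, encodes EAT-2B, an SH2 domain adaptor that binds the tails of SLAM family receptors. It had 2, 0, 2 and 0 counts in the C57BL/6 mice and 55, 89, 82 and 83 counts in the B6.SLE123 mice, or 1.74, 2.39, 2.43 and 3.27 CPM in the latter. Scaled by library size, the ratio of summed counts was 69.69 (95% exact interval 26.95 to 257.4, counting error only), and the adjusted p was 2.40e-06. Its neighbour and close copy Sh2d1b1 (EAT-2A), which starts 23711 bases further on, went the other way. Sh2d1b1 was at 65.5, 72.4, 70.3 and 66.7 CPM in the 4 C57BL/6 mice and 49.3, 59.6, 55.8 and 64.7 CPM in the 4 B6.SLE123 mice (log2 fold change -0.26, SE 0.07, adjusted p = 0.0121), and the lowest C57BL/6 mouse was only just above the highest B6.SLE123 mouse. Per kilobase of exon, Sh2d1b1 remained the more abundant copy in B6.SLE123 mice, at 22.5 RPKM against 0.966 RPKM. Because the copies resemble each other, the division of reads between them is uncertain. Cd244a, which encodes the SLAM family receptor 2B4, averaged 217 ± 8.16 CPM in C57BL/6 mice against 188 ± 20.1 CPM in B6.SLE123 mice (SD, n = 4 each, log2 fold change -0.20, adjusted p = 0.032). It no longer passed when C57BL/6 replicate 1, 2 or 4 was left out (adjusted p = 0.078, 0.069 and 0.0537).

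Fcrlb and Fcrla encode Fc receptor-like proteins that are kept inside B cells rather than shown on their surface, and their genes lie 4634 bases apart on the minus strand. Fcrlb, on chr1:170907273-170912941, was at 6.92, 5.03, 6.86 and 5.49 CPM in the 4 C57BL/6 mice and 0.190, 0.0806, 0.0592 and 0.0394 CPM in the 4 B6.SLE123 mice. Every B6.SLE123 mouse had at most 6 counts, against at least 131 in every C57BL/6 mouse, and the ratio of summed counts was 65.12 (95% exact interval 37.05 to 126.6, adjusted p = 1.73e-07). Fcrla was at 31.4, 29.7, 34.4 and 30.8 CPM in the 4 C57BL/6 mice and 20.4, 12.6, 15.7 and 13.7 CPM in the 4 B6.SLE123 mice, which is 2.03-fold lower (log2 fold change -1.02, SE 0.13, adjusted p = 6.27e-05). Both genes were lower in each B6.SLE123 mouse than in any C57BL/6 mouse, but by very different factors. Fcrl6, a surface receptor of the same family, was at 1.59 to 2.25 CPM in C57BL/6 and 0.709 to 0.888 CPM in B6.SLE123 mice (log2 fold change -1.13). Of 10 B cell marker genes, 8 were lower in B6.SLE123 mice, and their summed level was 688.7 to 799.7 CPM in C57BL/6 and 424.8 to 524.8 CPM in B6.SLE123 mice (median log2 fold change -0.639). The part of B cells in the falls of Fcrlb and Fcrla was not tested. Ackr1, the atypical chemokine receptor of the Duffy blood group, did not pass (-0.21, adjusted p = 0.0756).

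**Figure D3:**
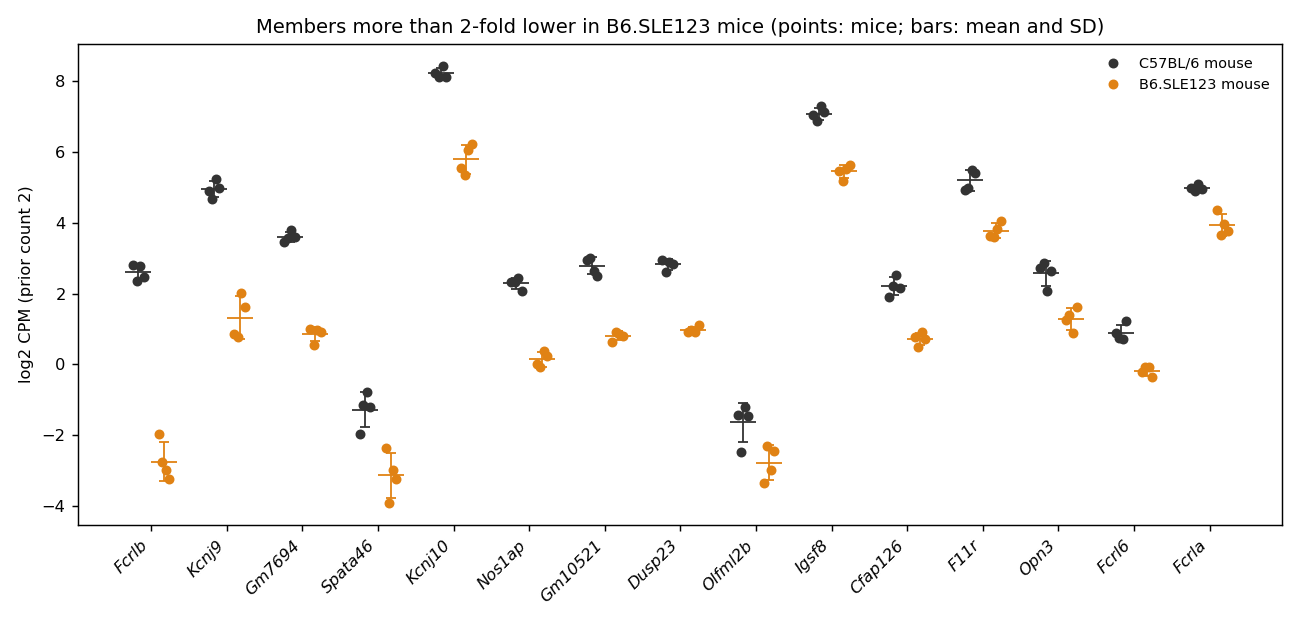
Level of 15 of the 17 genes that were more than 2-fold lower in B6.SLE123 mice, in log2 CPM with a prior count of 2, ordered by log2 fold change. Each point is a mouse (black, C57BL/6; orange, B6.SLE123), and bars give the mean and SD of 4 mice. The strains do not overlap for any of these genes except Olfml2b.

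Of 12 genes listed as adhesion, channel and membrane proteins, 9 were lower and 1 was higher, beside 26.6% and 26.7% of all genes. Of the falls, 7 were more than 2-fold (8.29% of all genes). The list holds Nos1ap, an adaptor gene described below, as 1 of these 7. Of these 7, a run of 3 genes adjacent in the table (Igsf8, Kcnj9 and Kcnj10) lay between 172 and 173 Mb.

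Kcnj10 encodes the inward rectifier potassium channel Kir4.1, best known from glial cells, and was among the more abundant of the 82 genes in C57BL/6 mice. It lies on chr1:172341210-172374085 and was at 301, 277, 347 and 280.2 CPM in the 4 C57BL/6 mice and 46.9, 40.7, 67.0 and 74.6 CPM in the 4 B6.SLE123 mice. All 4 B6.SLE123 mice were far below all 4 C57BL/6 mice, a 5.27-fold lower level (log2 fold change -2.40, SE 0.17, adjusted p = 1.31e-06). Per kilobase of exon its level fell from 55.7 to 10.6 RPKM. In C57BL/6 mice this was above the transcription factor gene Usf1 (51.8 RPKM), and in B6.SLE123 mice it was below it (49.5 RPKM).

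Kcnj9, on chr1:172320501-172329318, encodes Kir3.3, a potassium channel subunit opened by G proteins. It starts 11891 bases before Kcnj10 and is read in the opposite direction. Its level was 30.0, 25.6, 37.4 and 31.7 CPM in the 4 C57BL/6 mice and 1.74, 1.64, 3.99 and 2.99 CPM in the 4 B6.SLE123 mice, a 12.1-fold lower level in B6.SLE123 mice (log2 fold change -3.60, SE 0.23, adjusted p = 6.78e-07). B6.SLE123 replicates 3 and 4 were the higher pair for both channel genes. Igsf8, on chr1:172261641-172319841, encodes EWI-2, an immunoglobulin superfamily partner of tetraspanins, and ends 659 bases before Kcnj9. It was at 132, 117, 157 and 139.9 CPM in the 4 C57BL/6 mice and 44.5, 36.4, 46.0 and 49.6 CPM in the 4 B6.SLE123 mice, a 3.10-fold lower level (log2 fold change -1.63, SE 0.10, adjusted p = 6.74e-07). The groups did not overlap for any of the 3 genes. The genes that flank the run did not fall: Pea15a, an adaptor of ERK signalling, was at 0.46 and Pigm, a mannosyltransferase of GPI anchors, at -0.09 (adjusted p = 0.159). Kcnj9 shares 172 exon bases with Gm36937 and Igsf8 453 with another gene, both on the other strand, and whether counting used the strand is not stated.

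F11r, on chr1:171437535-171464603, encodes junctional adhesion molecule A. Its level was 30.3, 31.5, 45.1 and 42.8 CPM in the 4 C57BL/6 mice and 12.2, 12.01, 14.1 and 16.6 CPM in the 4 B6.SLE123 mice, a 2.74-fold lower level (log2 fold change -1.45, SE 0.15, adjusted p = 1.31e-05), with the C57BL/6 replicates 3 and 4 above replicates 1 and 2 and all B6.SLE123 values lower still. Opn3, on chr1:175662421-175692776, encodes encephalopsin, an opsin found outside the eye. It was at 6.58, 7.18, 4.15 and 6.12 CPM in the 4 C57BL/6 mice and 2.31, 2.58, 1.78 and 2.99 CPM in the 4 B6.SLE123 mice (log2 fold change -1.32, SE 0.20, adjusted p = 0.000233), without overlap. Opn3 shares 461 exon bases with Chml on the same strand, which encodes a Rab escort protein and rose (0.27, adjusted p = 0.00573). Smaller falls were found for Nectin4, a nectin adhesion molecule (-0.40), and Ncstn. Cadm3, a synaptic cell adhesion molecule, was the only one of the 12 to rise (0.38, adjusted p = 0.000763), and it shares 361 exon bases with Ackr1. Vangl2, of planar cell polarity (0.06), and Igsf9 (0.21) did not pass.

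Within the first megabase, Nos1ap, Gm7694 and Spata46 all fell. Gm7694 and Spata46 each overlap Nos1ap in position but not each other. Nos1ap, on chr1:170302668-170589861, encodes an adaptor of neuronal nitric oxide synthase. Its level was 4.96, 4.99, 5.37 and 4.14 CPM in the 4 C57BL/6 mice and 0.949, 0.887, 1.24 and 1.10 CPM in the 4 B6.SLE123 mice, a 4.65-fold lower level (log2 fold change -2.22, SE 0.16, adjusted p = 1.15e-06). Gm7694, a predicted gene on chr1:170298199-170306332 and on the same strand, was at 10.9, 11.8, 13.8 and 12.05 CPM in the 4 C57BL/6 mice and 1.93, 1.40, 1.89 and 1.81 CPM in the 4 B6.SLE123 mice (log2 fold change -2.79, SE 0.13, adjusted p = 1.15e-07). The 2 genes share 171 exon bases, so a part of their reads could belong to either. In both, the 4 B6.SLE123 mice lay in a narrow band well below the C57BL/6 mice. Spata46 is a spermatid gene that lies inside Nos1ap on the other strand. It had only 5, 10, 17 and 11 counts in C57BL/6 and 4, 0, 2 and 1 counts in B6.SLE123 mice. The ratio was 6.809 (95% exact interval 3.037 to 17.94). Its log2 fold change of -2.66 ran from -3.40 to -2.21 when each mouse was left out in turn.

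Other members rare in both strains also fell. Olfml2b, an olfactomedin-like matrix protein, had 8, 3, 12 and 9 against 1, 5, 2 and 3 counts, with overlap between the strains, and its adjusted p of 0.0182 became 0.0586 without C57BL/6 replicate 3. Pld5, an inactive phospholipase D family member (-0.92, adjusted p = 0.0309), also overlapped and passed in only a part of the alternatives.

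Of 7 enzymes and regulators of signalling, 5 were higher and 1 was lower, beside 26.7% and 26.6% of all genes. Cdc42bpa, on chr1:179960472-180165603, encodes MRCK alpha, a kinase that acts with CDC42 on actin and myosin. It was at 2.50, 2.84, 3.02 and 2.18 CPM in the 4 C57BL/6 mice and 5.92, 5.51, 5.42 and 6.38 CPM in the 4 B6.SLE123 mice, a 2.19-fold higher level (log2 fold change 1.13, SE 0.13, adjusted p = 2.88e-05), without overlap. It shares 464 exon bases with genes on the other strand, among them Coq8a. Pea15a (0.46), Arhgap30, a GTPase-activating protein (0.27), and Uhmk1 rose by less. Arhgap30 was the most abundant of the 82 genes per kilobase of exon, at 86.5 RPKM in C57BL/6 and 105 RPKM in B6.SLE123 mice. Dusp23, a small dual-specificity phosphatase on chr1:172630764-172632962, went the other way. Its level was 7.72, 6.03, 7.38 and 7.08 CPM in the 4 C57BL/6 mice and 1.80, 1.88, 1.83 and 2.09 CPM in the 4 B6.SLE123 mice, a 3.72-fold lower level (log2 fold change -1.89, SE 0.12, adjusted p = 6.72e-07), and the strains did not overlap. The related Dusp12 did not pass (-0.16, adjusted p = 0.166).

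**Figure D4:**
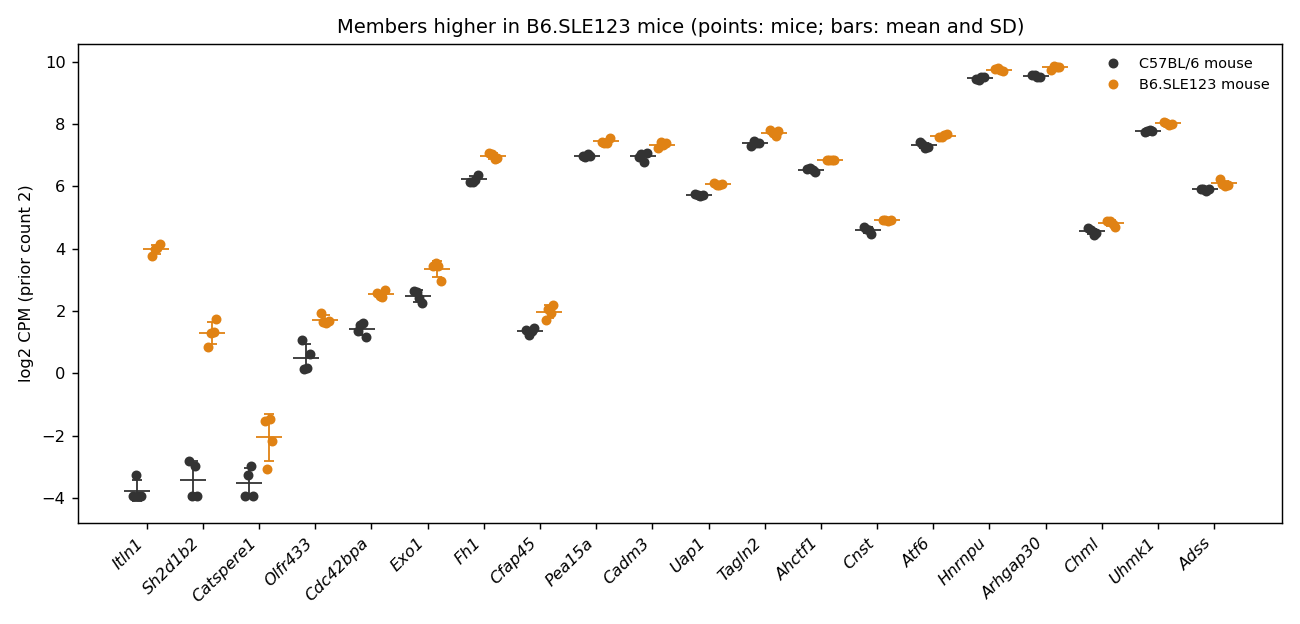
Level of 20 of the 21 genes that were higher in B6.SLE123 mice, in log2 CPM with a prior count of 2, ordered by log2 fold change. Each point is a mouse (black, C57BL/6; orange, B6.SLE123), and bars give the mean and SD of 4 mice. Itln1 and Sh2d1b2 lie near the floor in C57BL/6 mice, and from Exo1 rightwards every difference is less than 2-fold.

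Factors of transcription, RNA and DNA rose in 4 of 8 cases and fell in 0, beside 26.7% and 26.6% of all genes. Exo1, an exonuclease of DNA mismatch repair and replication, was at 6.13, 6.10, 5.31 and 4.67 CPM in the 4 C57BL/6 mice and 10.8, 11.6, 10.8 and 7.75 CPM in the 4 B6.SLE123 mice, a 1.86-fold higher level (log2 fold change 0.89, SE 0.14, adjusted p = 0.000266), with B6.SLE123 replicate 4 the lowest of its strain. All 12 proliferation marker genes were higher in B6.SLE123 mice (summed level 511.9 to 570.3 CPM in C57BL/6 and 956.5 to 1297 CPM in B6.SLE123 mice, median log2 fold change 0.955), and their part in the rise of Exo1 was not tested. Hnrnpu, an abundant nuclear RNA-binding protein, rose by less (log2 fold change 0.28), as did Atf6 (0.31) and Ahctf1 (0.32). Hnrnpu shares 804 exon bases with Cox20, a cytochrome oxidase assembly factor, which are most of the exon bases of the latter, so reads of Cox20 (-0.36, adjusted p = 0.234) are uncertain. Usf1, Zbtb18, Dedd and Smyd3 did not pass, with log2 fold changes of -0.07, 0.10, -0.18 and -0.17.

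Mitochondrial and metabolic genes differed by small factors. Of 16, 3 rose and 6 fell (56.2% differed, beside 53.4% of all genes). Among them 0 changed more than 2-fold, beside 11.1% of all genes. Fh1, the fumarate hydratase of the tricarboxylic acid cycle, rose most. Its level was 70.7, 71.1, 73.5 and 83.01 CPM in the 4 C57BL/6 mice and 133, 131, 117 and 120.1 CPM in the 4 B6.SLE123 mice, a 1.68-fold higher level (log2 fold change 0.75, SE 0.06, adjusted p = 3.70e-06), and the lowest B6.SLE123 mouse was well above the highest C57BL/6 mouse. Uap1 (0.34) and Adss, of adenylosuccinate synthesis (0.19), also rose. Tomm40l, a copy-like relative of the mitochondrial import channel (-0.67), Tstd1 (-0.53), B4galt3, a galactosyltransferase (-0.49), Sdhc (-0.44) and Ppox (-0.44) were among those that fell. These 5 all start between 171 and 172 Mb. Exons of Tomm40l are shared with Nr1i3, and those of B4galt3 and Ppox with each other, on opposite strands. Kmo, the kynurenine hydroxylase and among the more abundant genes of the window, averaged 231 ± 14.5 CPM in C57BL/6 mice against 223 ± 6.73 CPM in B6.SLE123 mice (SD, n = 4 each) and did not pass (adjusted p = 0.407).

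Of 11 genes of trafficking and protein turnover, 2 were higher and 3 were lower (45.5% differed, beside 53.4% of all genes). Among them 0 differed more than 2-fold, beside 11.1% of all genes. Usp21, a deubiquitinase (-0.57), Desi2, a deSUMOylating peptidase homologue (-0.46), and Copa fell, and Cnst, of connexin trafficking (0.31), and Chml rose. Among 8 cytoskeletal, centrosomal and ciliary genes, 4 fell and 2 rose, beside 26.6% and 26.7% of all genes. Cfap126, a protein of ciliary microtubules on chr1:171113918-171126967, was at 3.67, 4.61, 5.67 and 4.44 CPM in the 4 C57BL/6 mice and 1.65, 1.34, 1.81 and 1.57 CPM in the 4 B6.SLE123 mice, a 2.89-fold lower level (log2 fold change -1.53, SE 0.16, adjusted p = 2.07e-05), without overlap. Efcab2 (-0.49) and Sdccag8, a centrosomal protein (-0.24), fell by less. Tagln2, an actin-binding transgelin, rose (0.34) from 80.2 to 101 RPKM, and Cfap45 rose by 0.63.

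The remaining 12 genes were in no role list, and 2 of them rose and 6 fell, 6 in all by more than 2-fold. Gm10521, a predicted gene on chr1:171895664-171898237, was at 7.72, 7.98, 6.22 and 5.63 CPM in the 4 C57BL/6 mice and 1.49, 1.83, 1.75 and 1.69 CPM in the 4 B6.SLE123 mice, a 4.05-fold lower level (log2 fold change -2.02, SE 0.15, adjusted p = 1.56e-06), without overlap. Olfr433, an olfactory receptor gene on chr1:174040705-174044411, was at 2.04, 1.04, 1.07 and 1.46 CPM in the 4 C57BL/6 mice and 3.80, 3.04, 2.99 and 3.15 CPM in the 4 B6.SLE123 mice, a 2.32-fold higher level (log2 fold change 1.22, SE 0.21, adjusted p = 0.000654), with C57BL/6 replicate 1 the highest of its strain but still lower than any B6.SLE123 mouse. Its neighbour Olfr432 did not pass (0.89, adjusted p = 0.0755). Catspere1, a sperm calcium channel subunit gene, had 0, 1, 2 and 0 counts in C57BL/6 and 9, 2, 10 and 4 counts in B6.SLE123 mice, a ratio of 7.518 (95% exact interval 2.294 to 38.9, adjusted p = 0.0167). Its strains overlapped, and its log2 fold change of 2.74 ran from 2.35 to 3.62 when each mouse was left out in turn. Its neighbour and close copy Catspere2 did not pass (-0.71), and the division of reads between the copies is uncertain. Alyref2, a relative of an mRNA export factor, fell (-0.73, adjusted p = 0.000703). Over all roles, the 27 genes that did not pass had log2 fold changes between -0.71 (Catspere2) and 0.89 (Olfr432), and abundant genes such as Dcaf8, an adaptor of ubiquitin ligases (-0.08), Cep170, a centrosomal protein (0.10), and Pex19, of peroxisome assembly (0.07), lay near 0 among them.

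Some of the 82 genes encode members of larger complexes and pathways, and the other members of each, which start outside the window, were read beside them. Over all genes, 26.7% were higher and 26.6% were lower. Fh1 rose by 0.75, while the 12 other genes of the tricarboxylic acid cycle lay between -0.20 and 0.35, with 5 higher and 3 lower. Sdhc, an anchor subunit of succinate dehydrogenase, was at -0.44, while the 7 other subunits and assembly factors lay between -0.13 and 0.08, of which Sdha fell (-0.13, adjusted p = 0.0485). In both lists the gene of distal chromosome 1 had the largest log2 fold change in size.

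**Figure D5:**
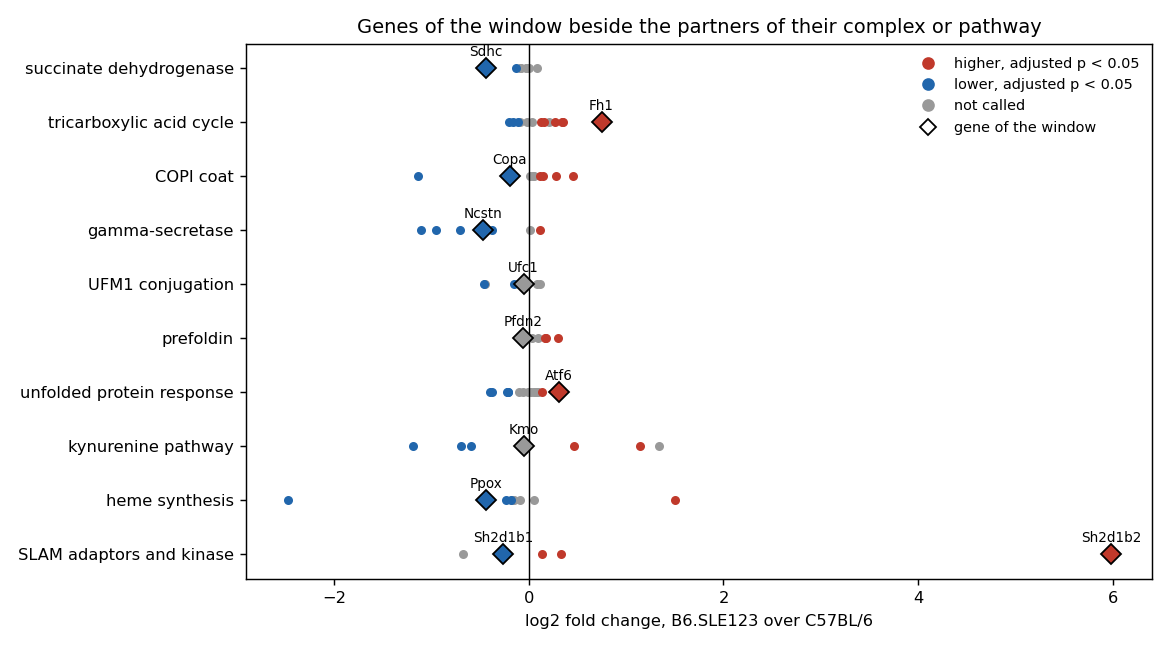
Log2 fold change (B6.SLE123 over C57BL/6) of the genes of 10 complexes and pathways, with the gene of distal chromosome 1 as a named diamond and its partners as circles. Red and blue mark genes higher and lower at an adjusted p below 0.05, grey those that did not pass. Fh1, Sdhc, Sh2d1b2, Atf6 and Pfdn2 lie at the edge of their row, and Ncstn lies inside the range of its partners.

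Ncstn, the nicastrin subunit of gamma-secretase, was not alone in falling. It was at 164 ± 6.18 CPM in C57BL/6 and 119 ± 4.81 CPM in B6.SLE123 mice (SD, n = 4 each, log2 fold change -0.47), and 4 of the 6 other genes of the complex were also lower. Psen2 was at -1.11, Aph1b at -0.95, Psenen at -0.71 and Aph1c at -0.37, while Aph1a did not pass (0.01). Copa, of the COPI coat of Golgi vesicles, was at -0.19, while 4 of its 8 partners were higher (Copg2 most, at 0.46) and Copz2 was lower (-1.14). Ncstn shares 195 exon bases with Copa, which lies head to head with it on the opposite strand.

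Atf6, a sensor of unfolded proteins in the endoplasmic reticulum, rose by 0.31, while 5 of the 14 other genes of that response were lower and 1 was higher. Xbp1 was at -0.39, Dnajb9 at -0.37 and the chaperone Hspa5 at -0.01 (adjusted p = 0.927). Ppox, of heme synthesis, was at -0.44 and its 8 partners lay between -2.48 (Alas2) and 1.5 (Alad), with 3 lower and 1 higher. Alas2 is also 1 of the erythroid markers. Kmo was at -0.05 and its 9 partners of the kynurenine pathway lay between -1.19 (Qprt) and 1.34 (Ido2, adjusted p = 0.0514), with 2 higher and 3 lower. Ufc1, of UFM1 conjugation, and Pfdn2, of the prefoldin chaperone, were both at -0.05 and did not pass. Of their partners, 2 of 7 and 0 of 5 were lower, and 0 of 7 and 3 of 5 were higher. Of the 4 other genes of SLAM adaptor signalling, Ptpn11 (0.33) and Inpp5d (0.13) rose, Fyn fell (-0.24), and Sh2d1a, the SAP adaptor, did not pass (-0.68, adjusted p = 0.0842).

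RNA of cell type markers was also compared between the strains, beside 26.7% of all genes that were higher and 26.6% that were lower. All 13 dendritic cell markers were in the table, 11 of them higher in B6.SLE123 mice and 1 lower, and their summed level was 29980 to 34890 CPM in C57BL/6 and 37640 to 40390 CPM in B6.SLE123 mice. Of 8 markers of type 1 conventional dendritic cells, 6 were higher and 1 was lower (2656 to 3036 CPM against 4251 to 5367 CPM, median log2 fold change 0.836). All 15 red pulp macrophage markers were lower, from 14790 to 18910 CPM in C57BL/6 to 2087 to 4157 CPM in B6.SLE123 mice (median log2 fold change -2.447). Of 10 T cell markers, 9 were in the table, 1 of them higher and 2 lower (294.8 to 339.9 CPM against 298.5 to 407.3 CPM, median log2 fold change -0.321). That sum mostly follows Cd4, which averaged 258 CPM in C57BL/6 and 296 CPM in B6.SLE123 mice and did not pass. Cd3e was at only 4.13 and 2.93 CPM. Of 10 erythroid markers, 9 were lower (79.73 to 269.5 CPM against 8.966 to 39.6 CPM, median log2 fold change -2.751, or -2.106 without C57BL/6 replicate 3). The part of these differences in the falls and rises of the 82 genes was not tested.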

How the data were processed

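CD11c-positive splenocytes of 8 female mice were analysed, 4 per strain, with the strain taken from the sample titles. Libraries were made with a stranded mRNA kit. According to the study's methods, the authors checked reads with FastQC, removed adapters and poor bases with cutadapt, mapped the reads to mm10 with STAR and assigned them to genes with featureCounts; tool versions and the strand setting of the counting are not given in the sources used here. The deposited values used here are raw counts per gene and mouse, without normalization. The deposited table also holds the authors' DESeq2 comparison (mean signal, log2 fold change with its error, score, p-value, adjusted p-value and ratio), which was not used. Both strains were aligned to the C57BL/6J reference, so reads of other alleles were counted by their match to it.

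Counts were scaled by TMM and compared with edgeR 4.0.16 in R 4.3.3 (quasi-likelihood F test, strain as the only term, no filter), with Benjamini-Hochberg adjustment over 13786 genes. The procedure was tested on simulated data. The SE of a log2 fold change was calculated back from the F test, as its size divided by the square root of F. It can be too small for genes near 0 in 1 strain. For Itln1 it was 0.28, although leaving out 1 mouse gave log2 fold changes from 9.92 to 11.93. A prior count of 2 was added for log2 CPM values. For genes with few counts, the ratio of summed counts per library size is given with a 95% exact binomial interval, which covers counting error only. Levels per kilobase use the merged exon length in GENCODE M21, in which 80 of the 82 genes have the coordinates of the table. In all, 37 of the 82 genes share exon bases with another annotated gene. Within strains, pairs of mice differed by a chi-square of 4.962 to 18.89 per degree of freedom, more than sampling noise, so no pair was treated as repeats of 1 library. The alternatives were edgeR's relative log expression factors, a minimum of 10 counts in every sample, DESeq2 1.42.0, limma-voom (limma 3.58.1), the replicate number as a block, each mouse left out in turn, a test against a 2-fold change (glmTreat), every gene of the window, and genes without shared exons. The window was proposed, and the gene lists and alternatives were written, with earlier results of these data known. Genes described with every mouse included all those with an adjusted p below 0.05, a more than 2-fold change, no overlap and 100 or more mean counts in the strain with more. Lower genes past the 2-fold change, the genes at the window's edges, 2 to 4 genes of each role list and the genes of each complex or pathway were also named, and further genes were chosen after their values were seen. Promoter letters were read from a RefSeq table on GRCm38.p6. Some genes of the window and of the lists are counted but not reported here by name.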

Additional observations from a re-analysis of the deposited data

Results flagged for a closer look

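Within a strain, 4 mouse values stood apart from the other 3 of their group by a gap larger than Dixon's 95% critical value for 4 samples. In all, 164 groups of 4 mice (82 genes in 2 strains) were examined, and chance alone gives about 1 in 20 groups, or 8.2. Klhdc9, a kelch domain protein gene, was at 0.28 log2 CPM in C57BL/6 replicate 2, above its strain's median of -0.51, and was counted 30 times in that mouse. Usf1 was at 7.05 log2 CPM in B6.SLE123 replicate 1, below the median of 7.13. Itln1 was at -3.26 log2 CPM in C57BL/6 replicate 2, above the median of -3.93, through a single count where the other 3 mice had 0. Olfr432 was at -1.59 log2 CPM in B6.SLE123 replicate 3, below the median of -0.88, from 9 counts. C57BL/6 replicate 2 held both the Klhdc9 and the Itln1 value, but a single count beside counts of 0 stands apart in whichever mouse holds it.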

How the results depend on the processing

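Of 130 values for comparisons under 16 alternatives, 127 kept their direction and stayed within 1.5 times or the spread between mice. The count of genes that differed more than 2-fold moved from 22 to 14 (2 higher) when at least 10 counts were asked for in every mouse, which leaves 67 of the 82 genes to test, and to 13 when the test was made against a 2-fold change. It was 29 with the left-out families and 16 for genes without shared exons. Leaving out each mouse in turn gave 54 to 56 genes that differed (21 to 23 higher, 32 to 34 lower), 21 to 24 more than 2-fold (5 to 6 higher, 15 to 18 lower), 54 to 59 without overlap, a median log2 fold change of -0.188 to -0.139, and 43 to 49 and 62 to 68 called genes in the pathway and marker lists. Of 706 values for the 55 single genes that differed, 696 stayed on their side of the threshold, 10 lost it (Pld5 6, Cd244a 3, Olfml2b 1) and 0 changed sign. The cause was not tested. DESeq2 and limma-voom gave 54 and 55 of the 82 genes.

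With the replicate number as a block, 56 genes differed and 22 differed more than 2-fold. The labels give both strains the numbers 1 to 4. Same-numbered mice deviated together with correlations of 0.0331, 0.14, 0.0105 and 0.145, and 2 of 4 correlated best with their own number. Low correlations cannot exclude a shared preparation, and the labels do not say whether same-numbered mice shared more than the number.

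Depth limits the 11 genes with fewer than 20 mean counts in the higher strain and the 7 with a mouse at 0, whose folds are uncertain. The intervals given for some of them cover counting error only.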
